A study of Mus musculus with 18 samples.

Results

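CTCF and RNA polymerase II (RNA Pol II) were measured by ChIP-seq at 10 imprinted mouse genes, *H19*, *Igf2*, *Meg3*, *Dlk1*, *Kcnq1ot1*, *Cdkn1c*, *Peg3*, *Mest*, *Peg10* and *Grb10*, in ventricles of WT mice and of mice lacking *Trdn-as* or *Mettl3* (*Trdn-as* KO, *Mettl3* KO). The authors merged the peaks of all libraries into 101256 regions, called union peaks here, and gave 1 normalized value per peak and library. Of these, 34 belong to 6 of the genes because the authors annotated the peak to the gene or because it lies in the gene or within 10 kb of it. The other 4 genes, *Igf2*, *Meg3*, *Dlk1* and *Mest*, are not named in the table. They were located by their distance from annotated neighbours in the older mouse assembly GRCm38, which gave 10 more peaks, 5 for *Igf2*, 3 for *Meg3*, 2 for *Mest* and 0 for *Dlk1*. The distance between the neighbours used was the same in both assemblies for *Igf2* and *Mest* and differed by 508 nt for *Meg3* and *Dlk1*. By gene, the 34 peaks are 2 for *H19*, 2 for *Kcnq1ot1*, 7 for *Cdkn1c*, 3 for *Peg3*, 4 for *Peg10* and 16 for *Grb10*.

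Each genotype had 2 libraries for RNA Pol II, 2 for CTCF and 1 for IgG, the background control. All mice were adult, and the chromatin was made from whole ventricles of 2 hearts. *Trdn-as* KO mice carry a polyA cassette in the first exon of *Trdn-as*, which stops transcription of this antisense RNA, and come from ES cell clones. *Mettl3* KO mice are labelled Mettl3lox/lox:alphaMHC-MerCreMerpos: tamoxifen switches on a Cre that is made in cardiomyocytes only, so the other cells of the heart keep the m6A methyltransferase METTL3. The controls are labelled WT. The study's methods describe Mettl3 lox/lox control mice that were given tamoxifen too, and whether the WT hearts used for ChIP-seq are from such mice is not given in the sources used here. The sources also do not say whether the replicate libraries come from separate hearts, so the p-values measure the spread between libraries, which may be technical.

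Imprinted genes are expressed from only 1 parental allele, and the choice is set by imprinting control regions whose DNA is methylated on a single allele. The control region upstream of *H19* is the best known: CTCF, a zinc finger protein that binds DNA and blocks contact between enhancers and promoters, occupies the unmethylated maternal copy and keeps enhancers from *Igf2*, while methylation keeps CTCF from the paternal copy. At other loci the control region is the promoter of a noncoding RNA such as *Kcnq1ot1*, which silences its neighbours on the same chromosome. The ChIP-seq values sum both alleles, and the alleles cannot be told apart in them.

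The estimated reads in union peaks ran from 1987882 to 4954239 for RNA Pol II, from 6789557 to 10163763 for CTCF and from 273577 to 813665 for IgG. The second *Trdn-as* KO library for RNA Pol II stood apart, with 18.6% of its uniquely mapped reads in peaks against 35.5% or more in the other RNA Pol II libraries. The promoter peak of the targeted gene *Trdn-as* had RNA Pol II values of 530 and 595 for WT, 140 and 100 for *Trdn-as* KO, and 503 and 491 for *Mettl3* KO. The values summed over Y chromosome peaks were 0 in all *Trdn-as* KO libraries and between 50 and 326 in the CTCF and RNA Pol II libraries of the other genotypes, so sex and genotype cannot be told apart there. The tissue label was met by its markers: promoter peaks of 8 of 8 cardiomyocyte markers reached mean RNA Pol II values from 114 for *Nppa* to 10426 for *Myh6*. The highest liver marker, *Apoa1*, reached 27.2, and the highest adipocyte marker, *Plin1*, 13, with *Ucp1* at 0. Markers of other heart cells were present too, up to 380 for endothelial *Kdr*, 318 for fibroblast *Tcf21*, 297 for mural *Pdgfrb* and 96 for leukocyte *Cd68*.

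The promoters of these genes differ widely in CpG content, the substrate of the imprinting mark. RefSeq promoter windows of GRCm38.p6, from 250 bases before to 50 after a transcription start, were available for 7 of the 10 genes, in 14 windows. The 4 printed here lie wholly under an RNA Pol II peak described below, by their distance from the gene start, and CpG dinucleotides are in capitals. The windows are chr11:12037371-12037670 (minus strand) for *Grb10*, chr7:143296498-143296797 (minus strand) for *Kcnq1ot1*, chr7:6730370-6730669 (minus strand) for *Peg3* and chr6:30737800-30738099 (plus strand) for *Mest*.
Grb10: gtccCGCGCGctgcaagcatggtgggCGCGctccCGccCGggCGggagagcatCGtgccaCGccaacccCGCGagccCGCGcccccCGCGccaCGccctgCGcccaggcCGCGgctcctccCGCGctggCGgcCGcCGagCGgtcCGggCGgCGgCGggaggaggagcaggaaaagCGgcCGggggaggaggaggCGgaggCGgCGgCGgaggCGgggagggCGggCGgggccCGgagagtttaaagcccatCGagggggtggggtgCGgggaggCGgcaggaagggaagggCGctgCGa
Kcnq1ot1: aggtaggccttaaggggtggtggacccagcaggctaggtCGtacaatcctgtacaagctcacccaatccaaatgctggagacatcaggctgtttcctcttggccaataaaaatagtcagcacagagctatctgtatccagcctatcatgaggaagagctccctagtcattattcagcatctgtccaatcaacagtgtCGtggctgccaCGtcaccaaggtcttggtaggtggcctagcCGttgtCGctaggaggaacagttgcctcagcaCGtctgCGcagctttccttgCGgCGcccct
Peg3: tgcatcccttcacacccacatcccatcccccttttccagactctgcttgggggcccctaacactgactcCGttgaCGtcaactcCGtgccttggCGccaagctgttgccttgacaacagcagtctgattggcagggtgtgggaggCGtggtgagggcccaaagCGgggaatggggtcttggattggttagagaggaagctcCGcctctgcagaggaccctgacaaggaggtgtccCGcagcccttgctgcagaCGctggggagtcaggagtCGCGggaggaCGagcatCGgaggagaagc
Mest: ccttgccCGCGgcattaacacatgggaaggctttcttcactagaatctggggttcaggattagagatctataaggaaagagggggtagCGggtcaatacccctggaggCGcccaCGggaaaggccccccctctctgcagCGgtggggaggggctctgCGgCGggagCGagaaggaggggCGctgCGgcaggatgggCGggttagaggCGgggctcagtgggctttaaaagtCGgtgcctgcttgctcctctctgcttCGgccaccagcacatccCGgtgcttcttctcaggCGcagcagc
The *Grb10* window held 45 CpG dinucleotides, more than 98.1% of all 32851 windows. The *Mest* window held 17, the *Peg3* window 13 and the *Kcnq1ot1* window 9, against a median of 7 over all windows. None of the 14 windows held the CTCF core motif, searched by its consensus on both strands, which 0.557% of all windows hold. None held the YY1 motif GCCATNTT on either strand either, which 6.05% of all windows hold.

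The single peaks with the highest CTCF values, not corrected for peak width, were those of *Peg3*, *H19* and *Cdkn1c*. Of the 34 peaks, 7 (20.6%) had a mean CTCF value in the highest 10% of all union peaks, at 82.3 or more: 3 upstream of *Cdkn1c* and 1 each at *Grb10*, *H19*, *Peg10* and *Peg3*. For RNA Pol II, 4 of 34 (11.8%) were in the highest 10%, at 129 or more, and they were the promoter peaks of *Cdkn1c*, *Grb10*, *Kcnq1ot1* and *Peg3*. Among the 10 peaks located by distance, 1 at *Igf2* was in the highest 10% for CTCF and 1 at *Mest* for RNA Pol II.

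**Figure D1:**
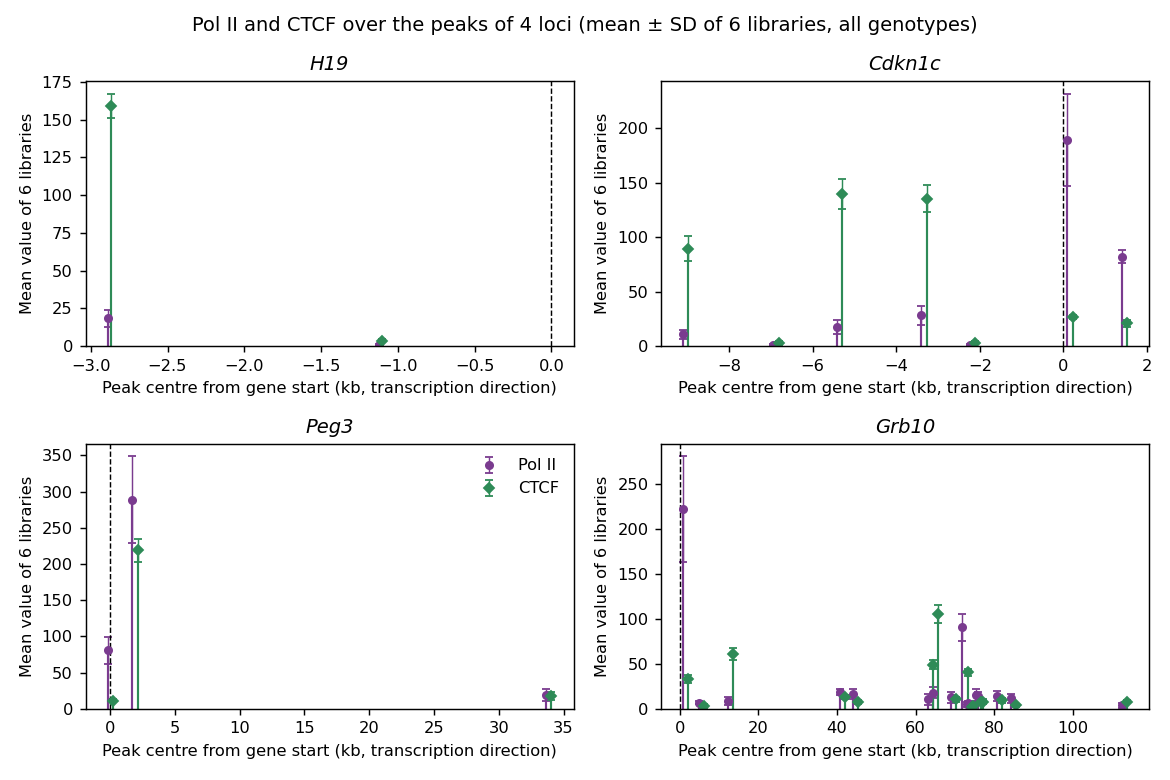
Mean value of RNA Pol II (circles) and CTCF (diamonds) at each peak of *H19*, *Cdkn1c*, *Peg3* and *Grb10* against the distance of the peak centre from the gene start in kb, with the SD over the 6 libraries of the target as error bars. The 2 symbols of a peak are set slightly apart for legibility, and the dashed line marks the gene start. CTCF and RNA Pol II are high at separate peaks of *Cdkn1c*, while the large *Peg3* peak is high in both.

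At *H19*, a maternally expressed noncoding RNA, the peak over the imprinting control region was a CTCF peak with almost no RNA Pol II. It lies on chromosome 7 from 142133550 to 142135980 in GRCm39, from 1664 to 4094 nt upstream of the gene start, and is 2431 nt wide. Its CTCF values were 164 and 154 for WT, 170 and 162 for *Trdn-as* KO, and 158 and 147 for *Mettl3* KO. The WT values overlapped with those of both knockouts, the mean of the 6 libraries was 159, and 98.3% of all union peaks had a lower mean. Relative to uniquely mapped reads, CTCF there was 16.1 times the mean of the IgG libraries, while RNA Pol II was 1.12 times the IgG, which rests on 40 estimated IgG reads in all. The RNA Pol II values of this peak were 15 and 16 for WT, 26 and 24 for *Trdn-as* KO, and 18 and 11 for *Mettl3* KO. The second peak of this region, 1114 nt upstream of the start, had CTCF values of 2 to 5 and was too low to be tested, and no union peak lies at the *H19* start itself.

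*Igf2*, the growth factor paired with *H19*, had its CTCF upstream of the gene start and little RNA Pol II. The peak from 142225700 to 142226599 on chromosome 7, centred 5596 nt upstream, had CTCF values of 107 and 95 for WT, 101 and 100 for *Trdn-as* KO, and 92 and 95 for *Mettl3* KO. A further peak 8978 nt upstream held a mean CTCF value of 52.7. RNA Pol II was highest in a peak 7373 nt inside the gene, at 16 and 29 for WT, 39 and 16 for *Trdn-as* KO, and 28 and 22 for *Mettl3* KO. The authors annotated that peak to *Igf2os*, an antisense gene, and ChIP-seq has no strand, so the transcripts cannot be told apart. The spread between libraries of 1 genotype was as large as that between genotypes.

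*Kcnq1ot1* and *Cdkn1c*, which share a domain on chromosome 7, had high RNA Pol II at their promoters, and the strong CTCF peaks of *Cdkn1c* lay apart from its promoter. *Kcnq1ot1* is the paternally expressed antisense RNA of the *Kcnq1* gene, and its promoter peak from 142849309 to 142850740 had RNA Pol II values of 162 and 181 for WT, 225 and 183 for *Trdn-as* KO, and 223 and 261 for *Mettl3* KO. Both libraries of each knockout lay above both WT libraries, as in 43.1% (*Mettl3* KO) and 12.1% (*Trdn-as* KO) of all tested promoter peaks. Scaled to uniquely mapped reads, the *Trdn-as* KO difference turned to a log2 fold change of -0.35. CTCF was 35 and 46 for WT, 37 and 37 for *Trdn-as* KO, and 36 and 37 for *Mettl3* KO at the same peak. *Cdkn1c* encodes the cell cycle inhibitor p57, is expressed from the maternal allele and is silenced by *Kcnq1ot1* on the paternal one. Its promoter peak from 143014057 to 143015199 had RNA Pol II values of 166 and 160 for WT, 220 and 132 for *Trdn-as* KO, and 225 and 234 for *Mettl3* KO, where only the *Mettl3* KO libraries were clear of WT.

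CTCF at *Cdkn1c* lay upstream, in 3 peaks. The strongest, from 143019372 to 143020932 and centred 5365 nt upstream, had CTCF values of 154 and 126 for WT, 154 and 147 for *Trdn-as* KO, and 131 and 126 for *Mettl3* KO. The peak centred 3336 nt upstream had 144 and 123, 141 and 153, and 124 and 127 in the same order, and the one 9037 nt upstream had 92 and 78, 108 and 97, and 79 and 83. In all 3, both *Trdn-as* KO libraries lay above both *Mettl3* KO libraries, as in 34.7% of all tested CTCF peaks. The WT libraries overlapped with the *Mettl3* KO libraries in all 3, and with the *Trdn-as* KO libraries except at the peak 9037 nt upstream. CTCF at the *Cdkn1c* promoter peak itself was 25 to 29.

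The paternally expressed genes *Peg3*, *Mest* and *Peg10* had their most CTCF and most RNA Pol II in the same promoter peak. The same held at *Kcnq1ot1*, and at *H19* in its control region. CTCF was 7.7 times the mean IgG at *Peg3*, 7.81 at *Mest* and 6.32 at *Peg10*. At the promoter peaks of *Grb10*, *Cdkn1c* and *Kcnq1ot1* it was 6.56, 5.75 and 3.53 times. *Peg3* encodes a zinc finger protein, and its peak from 6729992 to 6733014 on chromosome 7 covers 3023 nt just inside the gene. CTCF values there were 234 and 193 for WT, 209 and 228 for *Trdn-as* KO, and 217 and 232 for *Mettl3* KO, a mean of 219 that was higher than at 99.4% of union peaks. RNA Pol II was 252 and 258 for WT, 283 and 218 for *Trdn-as* KO, and 370 and 352 for *Mettl3* KO, so that the *Mettl3* KO libraries were clear of all others. The adjoining peak over the *Peg3* start had RNA Pol II values of 68 and 74 for WT, 60 and 77 for *Trdn-as* KO, and a mean of 103 ± 8.49 (SD, n = 2) for *Mettl3* KO, and CTCF of 9 to 14.

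*Mest*, which encodes a protein of the hydrolase fold family, had RNA Pol II values of 195 and 202 for WT, 213 and 167 for *Trdn-as* KO, and 223 and 203 for *Mettl3* KO, in a peak from 30736787 to 30738516 on chromosome 6. That peak is centred 14106 nt inside the gene as located by distance. CTCF in it was 82 and 70 for WT, 70 and 69 for *Trdn-as* KO, and 66 and 67 for *Mettl3* KO. *Peg10*, derived from a retrotransposon, had RNA Pol II values of 97 and 70 for WT, 76 and 67 for *Trdn-as* KO, and 97 and 96 for *Mettl3* KO in the peak over its start, from 4746454 to 4748413 on chromosome 6. CTCF there was 87 and 95 for WT, 102 and 94 for *Trdn-as* KO, and 104 and 101 for *Mettl3* KO. Both genes differed between genotypes by little more than the spread within a genotype.

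*Meg3*, the maternally expressed noncoding RNA of the *Dlk1* domain, had RNA Pol II near its start and little CTCF. Its peak centred 468 nt upstream of the start, a distance that carries the 508 nt uncertainty given above, had RNA Pol II values of 38 and 20 for WT, 49 and 33 for *Trdn-as* KO, and 58 and 46 for *Mettl3* KO, higher on average than at 81.5% of union peaks. The highest CTCF values, 527 nt inside the gene, were 19 and 18 for WT, 22 and 17 for *Trdn-as* KO, and 26 and 22 for *Mettl3* KO. No union peak lies in or within 10 kb of *Dlk1*, the paternally expressed Notch ligand homolog of this domain.

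*Grb10*, an adaptor protein that dampens insulin receptor signalling, had the most peaks, 16 on chromosome 11, most of them far inside the gene. The promoter peak from 11986421 to 11987847 had RNA Pol II values of 150 and 182 for WT, 244 and 187 for *Trdn-as* KO, and 260 and 307 for *Mettl3* KO, with CTCF of 29 to 40. The main CTCF peak lies 65068 nt into the gene, from 11923192 to 11924037, and had CTCF values of 106 and 95 for WT, 98 and 121 for *Trdn-as* KO, and 112 and 101 for *Mettl3* KO. A second RNA Pol II peak, 72546 nt into the gene, had values of 86 and 82 for WT, 87 and 75 for *Trdn-as* KO, and 119 and 94 for *Mettl3* KO. The other 13 peaks had mean values of 3.83 to 18.5 for RNA Pol II, and their highest mean CTCF values were 60.7 at 12812 nt and 49.2 at 63674 nt into the gene.

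Since wide peaks collect more reads, levels were compared between genes per kb of peak. The peaks compared were those with the most signal before this correction. For RNA Pol II, the order was *Cdkn1c* with 166 ± 36.9 normalized units per kb (SD, n = 6 libraries of all genotypes), *Grb10* with 155 ± 41.1, *Kcnq1ot1* with 144 ± 25.7, *Mest* with 116 ± 11.0, *Peg3* with 95.6 ± 19.8, *Meg3* with 94.8 ± 31.1, *Igf2* with 48.9 ± 17.3, *Peg10* with 42.8 ± 7.33 and *H19* with 7.54 ± 2.34. Neighbours in this order differed by less than the sum of their SDs, except *Peg10* and *H19*. These means pool the genotypes, and in WT alone *Kcnq1ot1* with 119.8, *Grb10* with 116.3 and *Mest* with 114.7 units per kb were close together. A narrower peak can rank higher, as the one over the *Peg3* start did for RNA Pol II with 124 ± 28.5 units per kb, and the one 85532 nt into *Kcnq1ot1* for CTCF with 41.4 ± 6.26. For CTCF at the peak with the most signal, *Grb10* was first with 125 ± 11.5 units per kb, followed by *Igf2* with 109.3 ± 6.03, *Cdkn1c* with 89.5 ± 8.66, *Peg3* with 72.4 ± 5.24 and *H19* with 65.5 ± 3.32. *Peg10* followed with 49.6 ± 3.25, *Mest* with 40.9 ± 3.34, *Meg3* with 38.8 ± 6.24 and *Kcnq1ot1* with 26.5 ± 2.79. In the CTCF order, *H19* and *Peg10*, *Peg10* and *Mest*, *Igf2* and *Cdkn1c*, *Cdkn1c* and *Peg3*, and *Meg3* and *Kcnq1ot1* were separated by more than the sum of their SDs.

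The first comparison asked whether CTCF at these loci differs between genotypes, tested with limma on log2(value + 1) over all peaks that reached a value of 10 in 2 or more of the CTCF libraries. Of the 34 peaks 23 could be tested, and 0 differed in any comparison at a Benjamini-Hochberg adjusted p below 0.05. Over all 60649 tested peaks, 0.587% were called between *Trdn-as* KO and WT, 0.185% between *Mettl3* KO and WT and 1.37% between the knockouts. At an unadjusted p below 0.05, 2, 1 and 4 of the 23 passed, beside 10.2%, 15.7% and 18.8% of all tested peaks. The median log2 fold change of the 23 was 0.07 for *Trdn-as* KO against WT and -0.05 for *Mettl3* KO against WT, beside 0.04 and -0.06 over all tested peaks. Of the 6 testable peaks located by distance 0 were called, with lowest adjusted p-values from limma of 0.68, 0.39 and 0.42 in the same order and 0 at an unadjusted p below 0.05.

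At the *H19* control region the log2 fold change of CTCF was 0.06 ± 0.08 (SE) in *Trdn-as* KO and -0.06 ± 0.08 in *Mettl3* KO, both against WT, with 95% intervals from -0.12 to 0.24 and from -0.24 to 0.12 (adjusted p = 0.83 and 0.77, limma). At the *Peg3* peak the log2 fold changes were 0.04 ± 0.09 and 0.08 ± 0.09 in the same order (adjusted p = 0.90 and 0.71, limma). The largest difference among the strongest CTCF peaks of the 9 genes was at *Meg3*. CTCF there differed by 0.35 ± 0.19 between *Mettl3* KO and WT (adjusted p = 0.39, limma). Both *Mettl3* KO libraries lay above both WT libraries at *Meg3* and *Peg10* and below both at *Mest*. Over all 60649 tested peaks, they lay above in 9578 and below in 16776.

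Between the knockouts, the lowest adjusted p for CTCF was that of the sum over all 7 *Cdkn1c* peaks. The sums were 450 and 383 for WT, 459 and 449 for *Trdn-as* KO, and 382 and 385 for *Mettl3* KO, a log2 fold change of 0.24 ± 0.07 between *Trdn-as* KO and *Mettl3* KO (adjusted p = 0.078, limma). The WT libraries spanned the range from one knockout to the other. Both *Trdn-as* KO libraries lay above both *Mettl3* KO libraries in 7 of the 23 tested peaks and in 34.7% of all tested peaks, and the median over all tested peaks was 0.09.

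**Figure D2:**
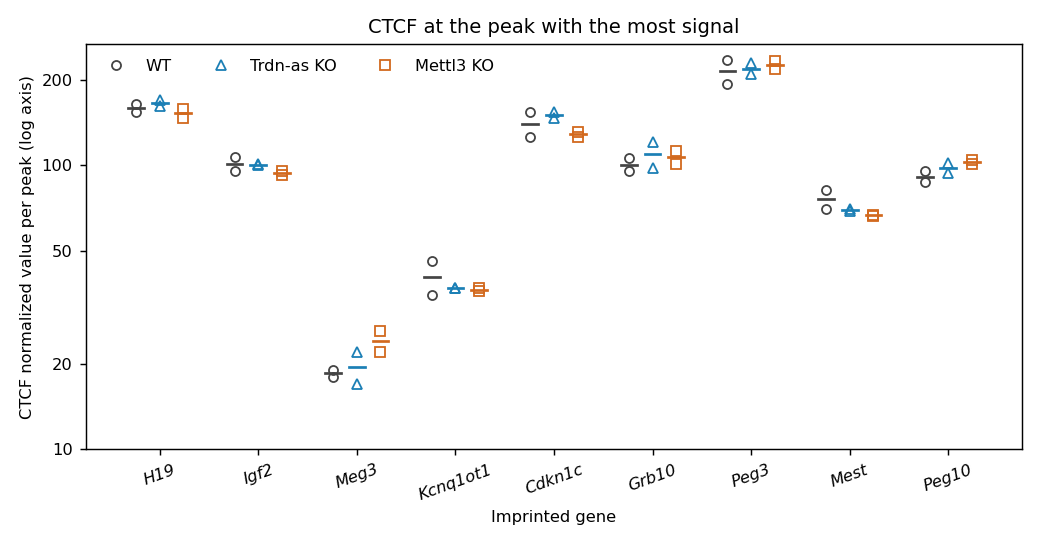
CTCF normalized value on a log axis at the peak with the most CTCF of each gene, in both libraries of each genotype (WT circles, *Trdn-as* KO triangles, *Mettl3* KO squares), with the mean of each genotype as a bar. The genotypes of a gene lie close together, and the genes range from 17 at *Meg3* to 234 at *Peg3*.

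The second comparison asked the same of RNA Pol II, with 25 of the 34 peaks testable. *Grb10* was the one gene with a call: RNA Pol II at its promoter peak was higher in *Mettl3* KO than in WT, with a log2 fold change of 0.77 ± 0.20 and a 95% interval from 0.37 to 1.17 (adjusted p = 0.037, limma), and higher in 2 of 2 libraries. It is 1 call of 25, with 1.19% of all 52655 tested peaks called in this comparison. At an unadjusted p below 0.05, 4 of the 25 passed, beside 15.5% of all tested peaks. Leaving out *Mettl3* KO or WT libraries ended the call in each case, with adjusted p-values of 0.85 without WT 1, 0.42 without WT 2, 0.34 without *Mettl3* KO 1 and 0.72 without *Mettl3* KO 2 and log2 fold changes of 0.63 to 0.91. The call also ended scaled to uniquely mapped reads (adjusted p = 1, limma, log2 fold change 0.63), with no filter on low values (0.4) and without the variance trend (0.44). In *Trdn-as* KO the same peak differed from WT by 0.37 ± 0.20 (adjusted p = 0.70, limma).

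**Figure D3:**
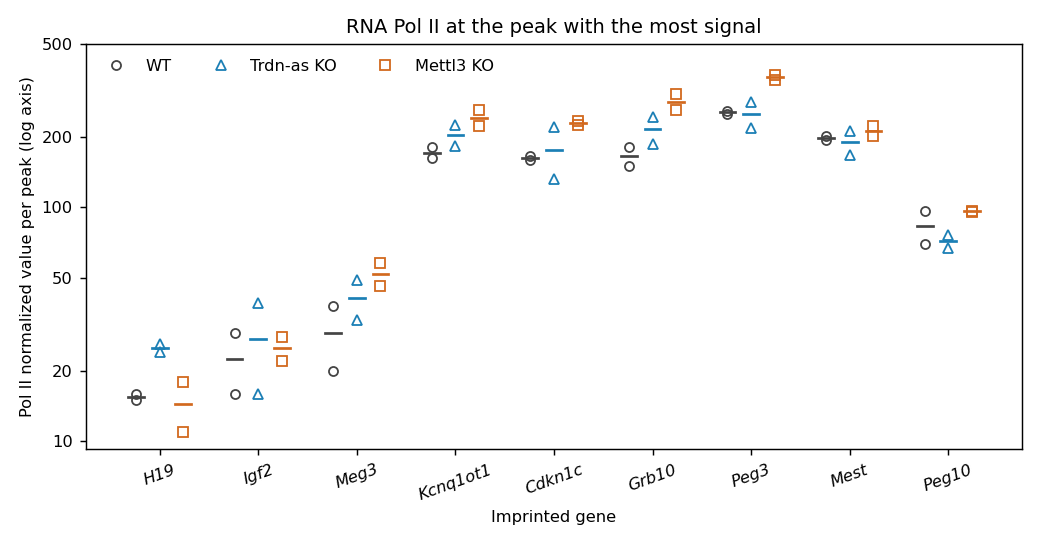
RNA Pol II normalized value on a log axis at the peak with the most RNA Pol II of each gene, in both libraries of each genotype (WT circles, *Trdn-as* KO triangles, *Mettl3* KO squares), with the mean of each genotype as a bar. Both *Mettl3* KO libraries lie above both WT libraries at *Meg3*, *Kcnq1ot1*, *Cdkn1c*, *Grb10*, *Peg3* and *Mest*.

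At other promoters the values did not pass the threshold. The log2 fold changes of *Mettl3* KO against WT were 0.88 ± 0.35 for *Meg3* (adjusted p = 0.21, limma), 0.50 ± 0.18 for *Peg3* (0.17), 0.49 ± 0.20 for *Kcnq1ot1* (0.22) and 0.49 ± 0.22 for *Cdkn1c* (0.25). The *Meg3* value was 1.33 without WT 1 and 0.43 without WT 2. *Mest* differed by 0.10 ± 0.20, which turned to -0.04 scaled to uniquely mapped reads, and *Peg10* by 0.23 ± 0.27. The 3 other library scalings moved the median of all tested peaks from 0.08 to between -0.08 and 0.00, and *Grb10*, *Meg3*, *Peg3*, *Kcnq1ot1* and *Cdkn1c* kept a positive difference under each. Both *Mettl3* KO libraries were above both WT libraries at the strongest peak of 6 of the 9 genes, and in 43.1% of all tested promoter peaks. The latter include weak peaks. By the strongest promoter peak of each gene, the count was 18 of 38 other imprinted genes. Among genes for CTCF, cohesin and imprint maintenance it was 14 of 20. The median log2 fold change of the 25 tested peaks was 0.36, beside 0.08 over all tested peaks and 0.17 over all promoter peaks. Peaks of 1 gene count separately there, and *Grb10* holds 16 of the 34 peaks. With 1 summed value per gene, the median of the 9 genes was 0.32, and 0 were called. With a model of the 4 libraries being compared, 4 of the 25 tested peaks were called, the promoter peaks of *Grb10*, *Peg3*, *Kcnq1ot1* and *Cdkn1c*, with 9.23% of all tested peaks. Leaving out *Trdn-as* KO 1 or *Trdn-as* KO 2 also gave those 4, with 8.66% and 8.84% of all tested peaks called.

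**Figure D4:**
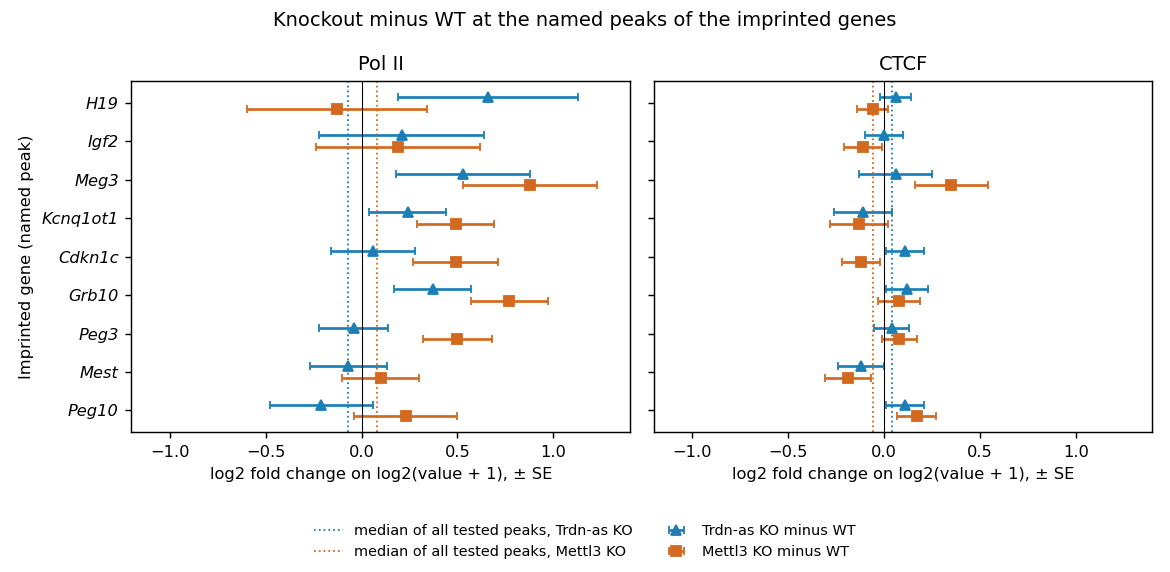
Log2 fold change of each knockout against WT on the log2(value + 1) scale, with its standard error, for RNA Pol II at the peak with the most RNA Pol II (left) and for CTCF at the peak with the most CTCF (right). Dotted lines are the medians of all tested peaks. The RNA Pol II differences of *Mettl3* KO at *Grb10*, *Meg3*, *Peg3*, *Kcnq1ot1* and *Cdkn1c* lie to the right of that median, and the CTCF differences run from -0.19 at *Mest* to 0.35 at *Meg3*, both in *Mettl3* KO.

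In *Trdn-as* KO against WT, 0 of the 25 peaks were called for RNA Pol II, with 0.304% of all tested peaks called. At an unadjusted p below 0.05, 1 of the 25 passed, beside 7.69% of all tested peaks. The median log2 fold change was 0.16, beside -0.07 over all tested peaks, with peaks of 1 gene counted separately. Both *Trdn-as* KO libraries lay above both WT libraries at the strongest peak of 3 of the 9 genes, *H19*, *Kcnq1ot1* and *Grb10*. Over all tested promoter peaks, weak ones included, the share was 12.1%. The *H19* peak is its control region, where RNA Pol II was 1.12 times the IgG. Scaled to uniquely mapped reads, which moves the median of all tested peaks to -0.65, the differences at *Kcnq1ot1* and *Grb10* were -0.35 and -0.23. At *H19* the difference went from 0.66 to 0.09. Both knockouts were compared with the same WT libraries. Between *Trdn-as* KO and *Mettl3* KO, 0 of 25 were called at a background of 1.5%, and the lowest adjusted p was 0.11 for the *Peg3* sum, with values of 373 and 309 for *Trdn-as* KO against 484 and 474 for *Mettl3* KO. Without *Trdn-as* KO 1, which leaves the library that stood apart as the lone *Trdn-as* KO sample, 3 of the 25 were called lower, at *Peg3*, *Cdkn1c* and *Grb10*, beside 17.6% of all tested peaks in that setting. Of the 4 testable peaks located by distance, 0 were called in any RNA Pol II comparison, with lowest adjusted p-values from limma of 0.79 (*Trdn-as* KO against WT), 0.21 (*Mettl3* KO against WT) and 0.63 (between the knockouts) and 0, 1 and 0 at an unadjusted p below 0.05.

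Fibroblast markers moved with the *Mettl3* KO group. The RNA Pol II values summed over the promoter peaks of 6 fibroblast markers were 757 and 808 for WT, 1157 and 808 for *Trdn-as* KO, and 1657 and 1638 for *Mettl3* KO. Of the 6, 5 passed the threshold in *Mettl3* KO against WT, beside 1.19% of all tested peaks. They were *Col1a1*, *Col1a2*, *Col3a1*, *Pdgfra* and *Tcf21*, with log2 fold changes of 0.74 to 1.45. *Postn* did not pass (adjusted p = 0.13, limma). Without the variance trend 2 of all tested peaks were called in this comparison, so not all 5 calls held there. The cardiomyocyte marker sums were 24881 and 26599 for WT against 25882 and 26215 for *Mettl3* KO. Among the mural markers *Pdgfrb* passed, and none of the tested endothelial, leukocyte, adipocyte or liver markers did. Only 3 of 5 adipocyte and 1 of 5 liver markers had a promoter peak, and *Adipoq* and *Ucp1* were too low to be tested. The part of the cell mixture in the *Grb10* difference was not tested, and in bulk ventricle more cells of a type and more RNA Pol II per cell cannot be told apart.

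The same fit gave the other genes of imprinting. Of 55 other imprinted genes, 38 had a promoter peak, 75 peaks in all. For RNA Pol II 52 were tested and 1 was called in *Mettl3* KO against WT: the promoter peak of *Igf2r*, the receptor that clears IGF2, with values of 147 and 140 for WT, 199 and 108 for *Trdn-as* KO, and 252 and 254 for *Mettl3* KO (log2 fold change 0.81 ± 0.22, adjusted p = 0.047, limma). Leaving out a WT or *Mettl3* KO library ended this call, with adjusted p-values of 0.85 without WT 1, 0.64 without WT 2, 0.48 without *Mettl3* KO 1 and 0.72 without *Mettl3* KO 2 and log2 fold changes of 0.78 to 0.85. It also ended scaled to uniquely mapped reads (1), with no filter on low values (0.46) and without the variance trend of limma (0.49). The *Igf2r* call is 1 of 52, beside 1.19% of all tested peaks. Another 1 of 52, beside 1.5% of all tested peaks, was called between the knockouts, at *Dcn*, which encodes the matrix proteoglycan decorin made by fibroblasts. Its values were 15 and 16 for WT, 10 and 18 for *Trdn-as* KO, and 45 and 46 for *Mettl3* KO (log2 fold change -1.69 ± 0.43 for *Trdn-as* KO against *Mettl3* KO, adjusted p = 0.029, limma). The *Dcn* call was lost under most alternatives, as given below. For CTCF 46 were tested, and 0 were called in the 3 comparisons, with 4, 5 and 12 at an unadjusted p below 0.05 for *Trdn-as* KO against WT, *Mettl3* KO against WT and the knockouts against each other, where all tested peaks gave 10.2%, 15.7% and 18.8%. The median RNA Pol II log2 fold change in *Mettl3* KO against WT was 0.25.

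Of 25 genes for CTCF, cohesin and the maintenance of imprints, 20 had a promoter peak, with 36 peaks. None of the 26 tested for RNA Pol II was called in the 3 comparisons, with 0, 6 and 6 at an unadjusted p below 0.05 in the same order, where all tested peaks gave 7.69%, 15.5% and 17.9%. Of the 22 tested for CTCF, 1 was called between the knockouts, beside 1.37% of all tested peaks. It lies 3897 nt upstream of *Zfp57*, the zinc finger gene that protects imprints from demethylation: 67 and 66 for WT, 67 and 70 for *Trdn-as* KO, and 46 and 48 for *Mettl3* KO (log2 fold change 0.53 ± 0.12, adjusted p = 0.033, limma). The *Mettl3* KO libraries lay below all others there, but *Mettl3* KO against WT was not called (adjusted p = 0.083, limma). The call between the knockouts was lost under most alternatives, as given below.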

How the data were processed

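CTCF, RNA Pol II and IgG ChIP-seq of mouse ventricles was analysed from 15 library columns, all of which were used, and the 3 input libraries were not analysed here. Per the labels and the study's methods, the authors trimmed reads with Trimmomatic 0.39, aligned them with STAR 2.7.11b to GRCm39, removed duplicates with Picard 3.1.1, merged MACS peaks over all libraries, counted with featureCounts and normalized with DESeq2 1.36.0. The deposited values are normalized scores rounded by the authors to whole numbers, so they were not tested as raw reads, and reads per library were estimated from the spacing of low values. A promoter peak lies within 5000 nt of a transcription start, as the authors annotated it.

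Values were tested with limma 3.58.1 (R 4.3.3) with a variance trend on log2(value + 1), in a model of the 3 genotypes per target. Rows had to reach a value of 10 in 2 or more of the 6 libraries, p-values were adjusted by Benjamini-Hochberg over all rows, and a row was called at an adjusted p below 0.05. The values of all peaks of a gene were also summed and tested as 9 further rows. An exact permutation test of 2 against 2 libraries cannot go below p = 0.333. On simulated RNA Pol II data (52664 rows) the test recovered 14.0% of 200 rows changed by a log2 fold change of 1, with 2 false calls, and on simulated CTCF data (60658 rows) 58.5%, with 2 false calls.

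Named were the peak of each gene with the most RNA Pol II and with the most CTCF, every called peak, the peaks between 1 and 5 kb upstream of *H19*, and called promoter peaks of the other imprinted genes and of the genes for CTCF, cohesin and imprint maintenance. Other peaks with values in the text were chosen after their values were seen. The genes, lists and tests were chosen with earlier results of these data known. Alternatives were other library scalings, filters, pseudocounts, models, thresholds and gene margins, a replicate block and leaving out each library.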

Additional observations from a re-analysis of the deposited data

Results flagged for a closer look

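Among the other imprinted genes and the genes for CTCF, cohesin and imprint maintenance, the knockouts differed from each other at 2 peaks, beside 1.5% of all tested peaks for RNA Pol II and 1.37% for CTCF. Each was called by the test of *Trdn-as* KO against *Mettl3* KO in limma, which is the test of the difference between their effects against the shared WT libraries. RNA Pol II at the *Dcn* promoter peak had a log2 fold change of -1.69, at 10 and 18 for *Trdn-as* KO against 45 and 46 for *Mettl3* KO. The call was lost under 9 of the 14 alternatives, with adjusted p-values from 0.051 to 0.57. CTCF at the *Zfp57* peak had a log2 fold change of 0.53, at 67 and 70 for *Trdn-as* KO against 46 and 48 for *Mettl3* KO. It was lost under 11 of the 14 alternatives, with adjusted p-values from 0.095 to 0.6. The direction held at both peaks under each alternative.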

How the results depend on the processing

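Of 602 pairs of a named value and an alternative, 569 kept the direction and 515 also the side of the threshold. The count of RNA Pol II calls in *Mettl3* KO against WT, 1 as reported, was 0 scaled to uniquely mapped reads, 0 with no filter, 0 without the variance trend, 0 at an adjusted p below 0.01, 2 with size factors within the target, 4 with only the compared genotypes and 0 to 4 without 1 library. Calls over all tested peaks moved as well, from 1.19% as reported to 0.0627% scaled to uniquely mapped reads, 0.00695% with no filter, 0.0038% without the variance trend, 4.16% with size factors within the target, 9.23% with only the compared genotypes and 0 to 8.84% without 1 library. The count between the knockouts, 0 as reported, was 0 to 3 without 1 library, and the 3, without *Trdn-as* KO 1, stand beside 17.6% of all tested peaks called lower. Gene margins of 0 and 20 kb changed no count. The causes were not tested.

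Scaled to uniquely mapped reads, the log2 fold changes of *Trdn-as* KO against WT turned to -0.36 at *Igf2*, -0.05 at *Meg3*, -0.35 at *Kcnq1ot1*, -0.53 at *Cdkn1c* and -0.23 at *Grb10* for RNA Pol II, and to -0.01 at *H19*, -0.01 at *Meg3* and -0.04 at *Peg3* for CTCF, while RNA Pol II at *Mest* in *Mettl3* KO turned to -0.04. Scaled to the same sum, *Mest* turned to -0.06, and *Peg3* in *Trdn-as* KO to 0.01 for RNA Pol II and -0.01 for CTCF. With size factors within the target, *Peg3* RNA Pol II in *Trdn-as* KO turned to 0.02.

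Leaving out 1 library at a time turned small differences. For RNA Pol II in *Trdn-as* KO against WT the ranges were -0.41 to 0.82 at *Igf2*, -0.30 to 0.43 at *Cdkn1c*, -0.23 to 0.15 at *Peg3*, -0.25 to 0.10 at *Mest* and -0.44 to 0.03 at *Peg10*. For RNA Pol II in *Mettl3* KO they were -0.46 to 0.20 at *H19*, -0.22 to 0.60 at *Igf2* and -0.01 to 0.46 at *Peg10*. For CTCF in *Trdn-as* KO they were -0.09 to 0.08 at *Igf2*, -0.12 to 0.24 at *Meg3*, -0.31 to 0.08 at *Kcnq1ot1*, -0.03 to 0.25 at *Cdkn1c*, -0.10 to 0.18 at *Peg3* and -0.03 to 0.27 at *Grb10*, and in *Mettl3* KO -0.33 to 0.06 at *Kcnq1ot1*, -0.26 to 0.03 at *Cdkn1c* and -0.06 to 0.22 at *Peg3*. A genotype left with 1 library is assumed to vary like the others.

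The deviations of same-numbered libraries correlated at -0.24 for CTCF between WT and *Trdn-as* KO, and at -0.01 to 0.01 in the other pairs. Whether same-numbered libraries share a batch was not tested. With the replicate number as a block, the counts of calls among the 34 peaks did not change, *Grb10* stayed at 0.77 (adjusted p = 0.034, limma), and *Zfp57* was no longer called (0.095).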
